A study of Mus musculus with 11 samples.

Results

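A set of 55 replication-dependent core histone genes of the mouse was followed from the mature oocyte to the late 2-cell embryo. The passage was compared with and without the maternal histone chaperone Daxx. Members were the genes of the count table whose current RefSeq symbol, looked up from the Entrez number, carries the name of a clustered H2A, H2B, H3 or H4 gene; linker histone genes were left out. They were 55 of 24421 genes in the table, namely 16 H2A, 16 H2B, 11 H3 and 12 H4 genes. On the GRCm38 genome, 46 of them lie on chromosome 13 between 21715711 and 23934913 and 9 on chromosome 3 between 96219885 and 96270192. Another 4 symbols that the rule would take (H2ac18, H2ac14, H3c4 and the pseudogene H2ac5-ps) were not analysed here.

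The libraries held total RNA of 50 oocytes or embryos each, pooled from 2 to 3 females over 8 weeks old on a mixed C57BL/6J and 129/Sv background, and were counted as reads per gene. Knockout females were Daxx F/F with the Zp3-cre transgene, which is active in growing oocytes, and control females were Daxx F/F without Cre, so that the floxed alleles were common to all and the transgene was present in knockouts only. Mature oocytes, which rest in the metaphase of meiosis II (MII), were taken 20 hours after hCG. The 2-cell embryos came from in vitro fertilisation of such oocytes with sperm of 8-week-old JF1 males and were taken 33 hours later, after zygotes with visible pronuclei had been selected. The groups were 2 libraries of knockout-derived embryos (labelled m-z+, that is without maternal Daxx but with the paternal allele), 3 of control embryos, 3 of knockout oocytes and 3 of control oocytes.

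Core histone genes of this type are short genes without introns that lie in clusters and are transcribed mainly while DNA is replicated. Their messages do not end in a poly(A) tail: they end in a stem-loop that is bound by the stem-loop binding protein Slbp and cut with the help of the U7 snRNP, and the coactivator Npat, acting downstream of cyclin E and Cdk2, drives their transcription. Oocytes store histone messages and proteins that serve the first divisions, and the 2-cell stage is when the embryonic genome of the mouse becomes broadly active. Daxx works with Atrx as a chaperone of H3.3, a replacement histone that is made by genes outside these clusters.

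The stem-loop is shown first because it is the sequence that sets these messages apart. The consensus of the histone stem-loop, 16 bases with the variable ones left free, was searched downstream of the stop codon, on the coding strand only, in GENCODE M21 transcripts of the same genome build. It was found in 37 of 55 members, and in 35 of the 38 whose annotated transcript runs more than 60 bases past the stop codon. The other 3 of those 38 were H2bc4, H2bc21 and H2bc23. In 14 members the annotated transcript ends 6 bases or less after the stop codon, so that these letters could not be read there. Among 21699 protein-coding genes of the annotation, 86 (0.396%) held the motif after a stop codon. The loop began 22 to 59 bases after the stop codon, with a median of 32. The lines below give 1 example for each class and main variant, with the 16 bases of the stem-loop in capitals and flanking bases in lower case, as DNA letters from 5′ to 3′. The loops lie at chr13:22042483-22042498 (H2ac11, minus strand), chr13:23542928-23542943 (H2bc9, minus), chr13:23544932-23544947 (H3c7, plus), chr3:96247327-96247342 (H3c14, plus), chr13:23698089-23698104 (H4c3, minus), chr13:22040966-22040981 (H4c9, minus) and chr13:23757366-23757381 (H4c2, plus).
H2ac11: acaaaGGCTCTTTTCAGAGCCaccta
H2bc9: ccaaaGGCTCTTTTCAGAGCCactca
H3c7: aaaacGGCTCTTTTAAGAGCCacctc
H3c14: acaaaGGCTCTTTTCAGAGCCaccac
H4c3: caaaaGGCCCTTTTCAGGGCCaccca
H4c9: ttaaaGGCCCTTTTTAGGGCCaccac
H4c2: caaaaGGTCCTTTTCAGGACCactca
Of the 8 variants found, 2 were shared between classes among H2A, H2B and H3 genes, and neither was found in an H4 gene. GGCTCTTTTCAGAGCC was the loop of 8 H2A, 7 H2B and 4 H3 genes, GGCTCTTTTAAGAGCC that of 2 H2B and 3 H3 genes, and the 11 H4 loops had other stems, GGCCC with GGGCC in 9 genes and GGTCC with GGACC in H4c11 and H4c2.

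The letters upstream of the genes were searched as well. RefSeq promoters (GRCm38.p6) matched 50 members, 1 of them with 2 start sites, and the 250 bases before the start were searched on both strands. The letters CCAAT, the core of the CCAAT box, were present in 16 of 16 H2A, 15 of 15 H2B and 7 of 9 H3 promoters but in 3 of 11 H4 promoters, against 33.8% of 32851 promoters of all genes. The octamer ATTTGCAT, known from H2B promoters as a binding site of the factor Oct1, was in 6 H2A and 7 H2B promoters and in no H3 or H4 promoter, against 1.60% of all. TATAAA was in 7 H2A, 7 H2B, 3 H3 and 6 H4 promoters, against 12.4% of all. GGTCCG, letters from the element called site II in human H4 genes, was in 8 of 11 H4 promoters and in 1 H2B and 1 H3 promoter, against 6.72% of all. None of the 4 motifs contains another, on either strand. The windows of H2A and H2B genes that lie head to head overlap, since 163 to 280 bases separate the 11 such pairs. Letters there can be counted for both genes of a pair, so the H2A and H2B counts are not separate from each other. A match is a description of the letters and not a measured binding site.

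H2bc18 had the highest embryo level of the members, and H4c3 was the highest H4 member. H2ac1 shares its upstream region with H2bc1, and neither rose. Because these genes carry the levels described below, the 250 bases before the start of the 3 genes are shown. They are chr3:96269450-96269699 (H2bc18, plus strand), chr13:23934187-23934436 (H2ac1, plus) and chr13:23698459-23698708 (H4c3, minus). Capitals mark CCAAT or its reverse complement ATTGG, the octamer on either strand, and GGTCCG.
H2bc18: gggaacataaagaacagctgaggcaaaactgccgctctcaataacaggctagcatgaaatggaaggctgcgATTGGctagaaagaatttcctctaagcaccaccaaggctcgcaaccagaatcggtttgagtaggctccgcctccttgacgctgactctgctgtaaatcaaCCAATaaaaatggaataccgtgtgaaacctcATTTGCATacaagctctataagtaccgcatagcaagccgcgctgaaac
H2ac1: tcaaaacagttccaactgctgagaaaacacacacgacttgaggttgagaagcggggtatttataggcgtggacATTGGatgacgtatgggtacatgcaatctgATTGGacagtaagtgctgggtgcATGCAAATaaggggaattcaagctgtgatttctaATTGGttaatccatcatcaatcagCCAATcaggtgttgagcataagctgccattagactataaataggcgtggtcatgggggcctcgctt
H4c3: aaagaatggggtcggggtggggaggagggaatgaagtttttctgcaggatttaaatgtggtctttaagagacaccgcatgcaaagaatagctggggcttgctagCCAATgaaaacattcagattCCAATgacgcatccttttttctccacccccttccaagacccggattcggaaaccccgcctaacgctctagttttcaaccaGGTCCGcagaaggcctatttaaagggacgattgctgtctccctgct
The upstream region of H2bc18 held 2 CCAAT boxes and 1 octamer, that of H2ac1 held 4 and 1, and that of H4c3 held 2 CCAAT boxes and 1 GGTCCG.

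Library facts that bear on these values were as follows. The embryo libraries held 17978192 to 25308468 counted reads and the oocyte libraries 32582998 to 39798586, so that 3 reads, the limit that a count of 0 allows, are 0.0754 to 0.167 CPM depending on the library. CPM, or counts per 1000000, is a gene's counted reads scaled to the library's total. It is a share of counted RNA, and a different amount of RNA per embryo or oocyte and a different amount of a message cannot be told apart. How the RNA was copied before amplification is not stated here. Whether messages without a poly(A) tail were captured equally at the 2 stages was not tested. Daxx was 8.14 ± 0.289 CPM in knockout oocytes and 92.6 ± 5.67 CPM in control oocytes (SD, n = 3 each; edgeR quasi-likelihood test, adjusted p = 1.2e-11). In embryos it was 22.8 and 25.5 CPM without maternal Daxx, against 37.3, 35.2 and 46.7 CPM in controls (log2 -0.75, SE 0.19, edgeR adjusted p = 0.54), and these embryos carry an intact paternal allele. The summed level of 10 oocyte markers was 1387 to 1850 CPM in embryos and 12690 to 13140 CPM in oocytes. That of 10 entries for markers of the 2-cell stage was 698.8 to 894.2 CPM in embryos and 3.79 to 9.16 CPM in oocytes. Of these entries Usp17la and Dub1 name the same gene, whose level therefore enters the sum more than once. The summed level of 12 granulosa and cumulus markers was 15.7 to 26.1 CPM in embryos and 35.8 to 46.0 CPM in oocytes. The part of the granulosa and cumulus signal in the results was not tested. Many core histone genes share sequence with other annotated genes. Of all 50-base windows in a member's annotated transcript, a median of 60.4% also occurred, on either strand, in a transcript of another gene. The share was over 50% in 33 of 55 members. The other gene need not be a histone gene: all windows of H2bc18 were shared, but with 0 other members. How such shared reads were counted is not known here, so the split between genes that share sequence is uncertain. Strand-specific counting is not given either.

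Summed over all 55 genes, core histone reads stood at 3454.9 and 4151.1 CPM in knockout-derived embryos and at 4890.6, 3434.5 and 3228.2 CPM in control embryos (replicates 1, 2 and 3). Knockout oocytes held 1934.1, 1924.3 and 1672.7 CPM, and control oocytes 1721.9, 1872.8 and 1776.6 CPM. Every embryo library lay above every oocyte library, and within each stage the genotypes overlapped. The mean was 2.06 times as high in embryos as in oocytes without maternal Daxx and 2.15 times in controls. Control embryo replicate 1 stood apart from the other control embryos: it had the highest summed level and the lowest share of reads on Lars2, a gene that collects reads resembling ribosomal RNA (0.482%, against 1.85% and 0.871% in replicates 2 and 3, and 1.81% and 0.552% in the knockout-derived embryos). The part of that difference in the histone levels was not tested. Without this library the control embryo mean was 3331 CPM, against 3851 CPM with it.

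The 4 classes did not move by the same factor. H2B reads averaged 1394 CPM in knockout-derived embryos (n = 2) and 1445 ± 161 CPM in control embryos, against 550.5 ± 25.2 CPM in knockout oocytes and 533.5 ± 24.1 CPM in control oocytes (SD, n = 3 in each of the 3 groups). The ratio of embryo to oocyte was 2.53 without maternal Daxx and 2.71 in controls for H2B, and 2.43 and 2.42 for H4. It was 2.24 and 2.08 for H2A, and 1.515 and 1.62 for H3. The H3 ratio in controls leans on embryo replicate 1. H3 reads were 1773.4, 899.0 and 925.6 CPM in control embryo replicates 1, 2 and 3, against 739.9 ± 38.3 CPM in control oocytes. The H2A ratio rests on 1 gene, the testis-type H2ac1. Without it H2A reads were 213.1 CPM in knockout-derived embryos and 214.4 ± 66.8 CPM in control embryos, against 27.4 ± 3.18 CPM in knockout oocytes and 25.6 ± 1.08 CPM in control oocytes, ratios of 7.79 and 8.37. Without H2bc1, the testis-type H2B gene, the H2B ratios were 3.16 and 3.34. These sums are a description with no test.

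**Figure D1:**
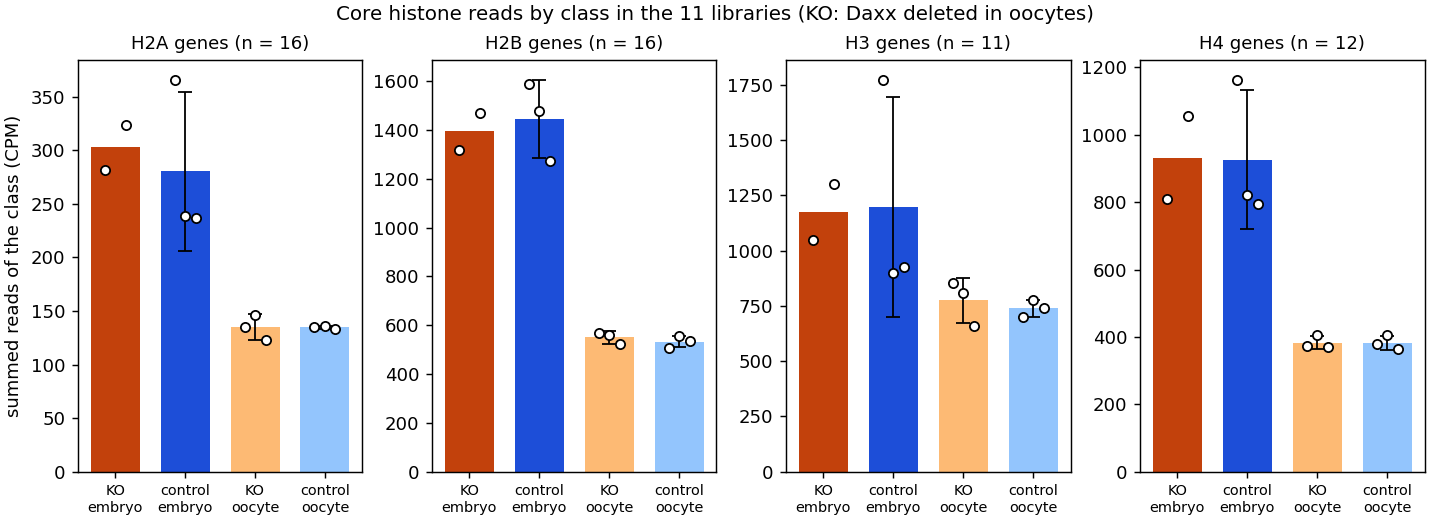
Summed reads (CPM, vertical axis from 0) of the H2A, H2B, H3 and H4 genes in each library (points), with the mean of the group (bar) and its SD for groups of 3; the groups are embryos and oocytes from knockout (KO) and control females. In each class every embryo library lies above every oocyte library, and KO and control libraries of a stage overlap.

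More members had counted reads over 1 CPM in embryos than in oocytes. In every oocyte library of either genotype 32 of 55 members exceeded 1 CPM, whereas 51 to 54 did so in the embryo libraries. The share of all genes over 1 CPM was not counted. Because reads may be shared between genes, these counts do not establish which members are in use. The median of the 55 mean levels was 24.0 CPM in knockout-derived embryos and 23.8 CPM in control embryos, against 3.22 CPM in knockout oocytes and 3.12 CPM in control oocytes. For comparison, the median over all genes of the table was 2.07 and 1.91 CPM in these embryos and 1.00 and 0.937 CPM in these oocytes. It took 13 to 16 members to hold 80% of core histone reads in embryos and 10 or 11 in oocytes. The testis-type genes H2ac1 and H2bc1 held 3.4% to 6.5% of core histone reads in embryos and 12.9% to 13.6% in oocytes.

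Per kb of the deposited gene width, H3c7 (Entrez 260423) led in oocytes and H2bc18 (Entrez 319189) led in embryos. All 50-base windows of the H2bc18 transcript also occur in that of Gm20628, a gene outside the family, and 49.3% of those of H3c7 occur in other genes, so that reads counted for either could be shared. H3c7, on chromosome 13 from 23544052 to 23544954, encodes a replicative H3. Its level was 566 CPM per kb in knockout oocytes and 543 CPM per kb in control oocytes, and it held 66.0% and 66.3% of H3 reads there. H2bc18, on chromosome 3 from 96269700 to 96270192, had 1761 CPM per kb in knockout-derived embryos and 1857 CPM per kb in control embryos, and 62.3% and 63.4% of H2B reads. In oocytes H2bc18 came next after H3c7, at 516 and 514 CPM per kb in knockout and control, followed by H2bc1 at 322 and 296 CPM per kb. The lead of H3c7 over H2bc18 in oocytes was smaller than the spread of H3c7 between libraries (SD 82.2 CPM per kb in knockout and 33.0 CPM per kb in control oocytes, n = 3 each), so their order there is not settled by these libraries. At the other end, H2bc21, H2ac23, H2ac24, H2bc23 and H3c15 were under 2 CPM per kb in every group. The place of H2bc23 rests on its deposited width of 4426 bases, which exceeds the annotated span. Its level was 7.19 CPM in knockout-derived and 7.53 CPM in control embryos. The levels of H2ac23 were 0.356 and 0.628 CPM in knockout-derived embryos and 0.278, 0.522 and 0.825 CPM in control embryos; it had no read in the 3 knockout oocyte libraries, which allows up to 0.0786 to 0.0797 CPM each.

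Nearly the whole family was higher in 2-cell embryos than in oocytes. In controls, 46 of 52 members tested were higher in embryos and 1 was lower (edgeR quasi-likelihood F test, adjusted p under 0.05 over 15577 genes), while 43.1% of all genes tested were higher and 40.0% lower. Of the 46, 43 rose at least 2-fold. Without maternal Daxx, 49 of 54 members tested were higher and 1 was lower, beside 42.5% and 37.7% of all 16592 genes tested, and again 43 rose at least 2-fold. The 3 members left untested in controls by the low-count filter were H2ac23, H2ac24 and H3c15, and without maternal Daxx H2ac24 was. Some members reached the test only through their embryo reads and so could hardly fail to differ. Among the 42 that pass the filter on control oocytes alone, 36 were higher and 1 lower, and among the 44 that pass on knockout oocytes alone, 39 were higher and 1 lower. With no filter, 49 of 55 were higher and 1 lower in controls, and 49 of 55 higher and 2 lower without maternal Daxx. The 2 stage comparisons share no library. The median change of the tested members was 2.15 on the log2 scale without maternal Daxx and 1.92 in controls, beside 0.09 and 0.07 for all genes.

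**Figure D2:**
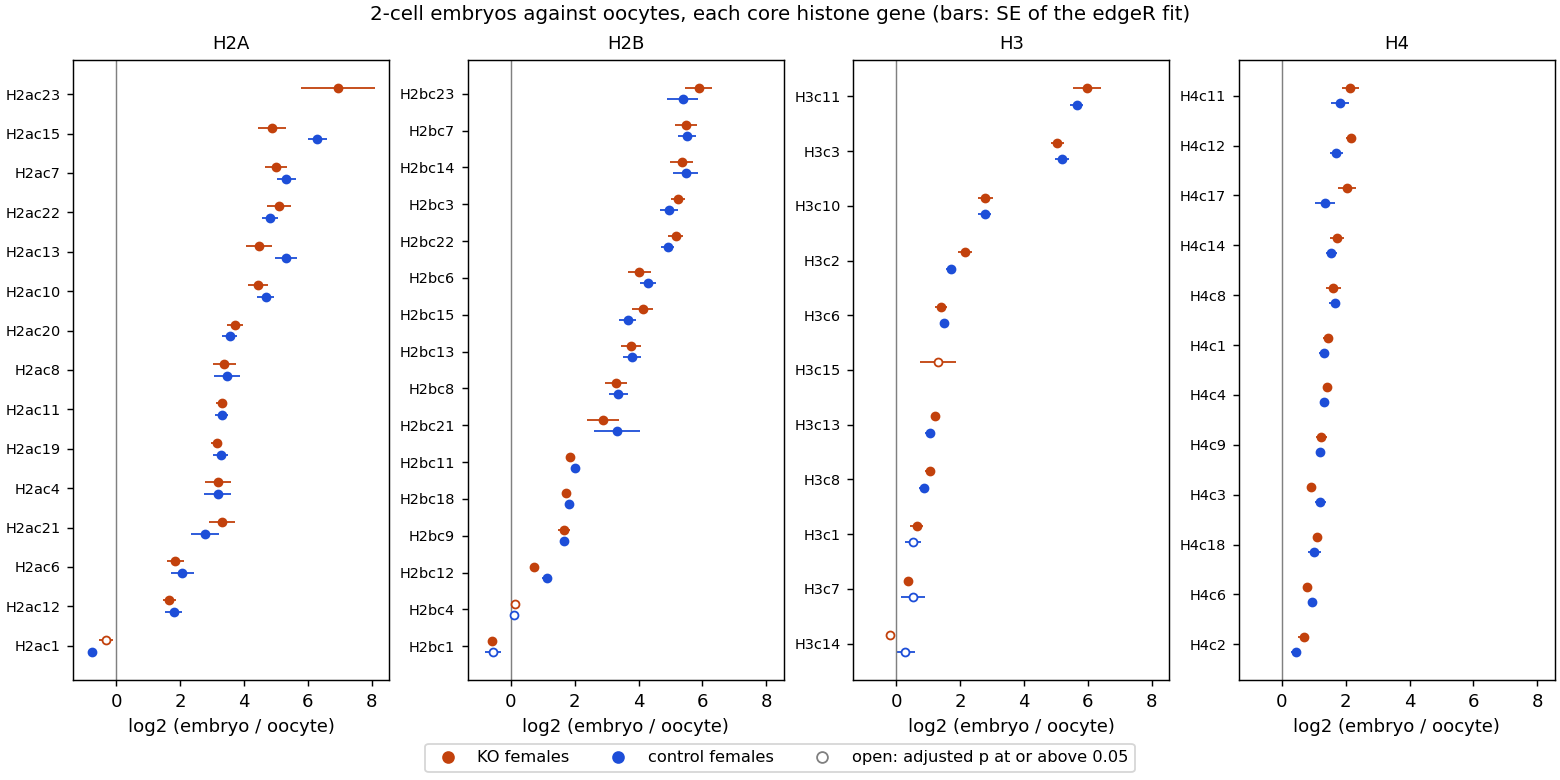
Log2 ratio of 2-cell embryos to oocytes (horizontal axis) for each tested gene of the 4 classes, from knockout (KO) females above and from control females below, with the SE of the edgeR fit as bars; open points have an adjusted p of 0.05 or more. H2A, H2B and H3 genes reach values above 5, and H4 genes lie between 0.44 and 2.18. The points of the testis-type genes H2ac1 and H2bc1 are the lowest of their classes. H2ac23 had no read in KO oocytes, so that its fitted value is no bound.

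H2A genes, which encode the partner of H2B in the nucleosome, had large changes. Of 15 tested without maternal Daxx 14 were higher, and of 14 tested in controls 13 were higher, with medians of 3.38 and 3.39 on the log2 scale. The shares of all genes tested were 42.5% and 43.1%. In both genotypes H2ac4, H2ac8, H2ac13, H2ac15 and H2ac21 passed the low-count filter only through their embryo reads and could hardly fail to differ. The same held for H2ac23 without maternal Daxx. The counts and medians include these genes. H2ac15 (Entrez 319169) had 7.39 and 13.8 CPM in knockout-derived embryos and 10.5, 8.20 and 10.6 CPM in control embryos, against 0.524, 0.372 and 0.132 CPM in knockout oocytes and 0.153, 0.126 and 0.0781 CPM in control oocytes. The stages did not overlap in either genotype. Its log2 change was 4.89 (SE 0.44) without maternal Daxx and 6.30 (SE 0.30) in controls, the largest of the tested members in controls (edgeR adjusted p = 7.4e-06 and 2.6e-09). H2ac11 averaged 32.8 and 31.5 ± 7.13 CPM in knockout-derived and control embryos, against 3.22 ± 0.413 and 3.12 ± 0.451 CPM in knockout and control oocytes. Its rise was 3.30 (SE 0.18) without maternal Daxx and 3.31 (SE 0.20) in controls. H2ac6, the H2A gene with the next highest level after H2ac1, rose by 1.85 (SE 0.27) and 2.07 (SE 0.36), and its control embryos spread from 73.9 CPM in replicate 1 to 29.4 and 31.8 CPM in replicates 2 and 3.

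The H2A gene H2ac1 (Entrez 319163), which encodes the testis-type TH2A known from spermatocytes and oocytes, went the other way. It had 116 and 62.9 CPM in knockout-derived embryos and 75.1, 72.7 and 50.0 CPM in control embryos, against 105, 118 and 99.0 CPM in knockout oocytes and 111, 110 and 107 CPM in control oocytes. The control embryos all lay below the control oocytes, and knockout-derived embryo replicate 2 lay among the knockout oocytes. The change was -0.32 (SE 0.22, edgeR adjusted p = 0.215) without maternal Daxx and -0.75 (SE 0.15, adjusted p = 0.00049) in controls. Without knockout-derived embryo replicate 2 it was -0.80 (adjusted p = 2.9e-05), and without replicate 3 it was 0.02 (adjusted p = 0.84). These leave-one-out fits have a lone embryo library in the knockout arm, which is assumed to vary like the other group. Its neighbour H2bc1 (Entrez 319177), the testis-type TH2B gene, had 108 and 83.5 CPM in knockout-derived embryos and 126, 79.5 and 58.3 CPM in control embryos, against 154, 142 and 122 CPM in knockout oocytes and 123, 132 and 127 CPM in control oocytes. Its change was -0.59 (SE 0.12, edgeR adjusted p = 0.0014) without maternal Daxx and -0.56 (SE 0.25, adjusted p = 0.068) in controls, where replicate 1 of the embryos lay within the oocyte range and replicates 2 and 3 below it. Without that library the control change was -0.93 (adjusted p = 0.00017), and in a single fit of all 11 libraries the call without maternal Daxx was lost (-0.61, adjusted p = 0.060).

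H2B genes fell into a group with large rises from near 0 and a group that was already present in oocytes. Of 16 tested in each genotype, 14 were higher in both, and H2bc4 was called in neither. The shares of all genes tested were 42.5% without maternal Daxx and 43.1% in controls. In both genotypes H2bc7, H2bc14, H2bc21 and H2bc23 passed the low-count filter only through their embryo reads and could hardly fail to differ. The same held for H2bc3 in controls. H2bc7 had 6.48 and 8.50 CPM in knockout-derived embryos and 9.23, 9.14 and 8.68 CPM in control embryos, against 0.131, 0.106 and 0.238 CPM in knockout oocytes and 0.276, 0.151 and 0.156 CPM in control oocytes. Its rise was 5.48 (SE 0.35) without maternal Daxx and 5.51 (SE 0.28) in controls. H2bc14 rose by 5.36 (SE 0.36) and 5.48 (SE 0.39), H2bc23 by 5.88 (SE 0.42) and 5.39 (SE 0.49), and H2bc3 by 5.24 (SE 0.23) and 4.95 (SE 0.29). All of these were under 1 CPM in every oocyte library. H2bc18, the highest H2B gene at both stages, had 832 and 905 CPM in knockout-derived embryos and 972, 976 and 799 CPM in control embryos, against 250, 260 and 253 CPM in knockout oocytes and 243, 261 and 257 CPM in control oocytes. Its rise was 1.73 (SE 0.08, edgeR adjusted p = 4.5e-08) without maternal Daxx and 1.83 (SE 0.10, adjusted p = 1.2e-08) in controls. H2bc9 rose by 1.66 (SE 0.19) and 1.67 (SE 0.12). H2bc4, named here after its values were seen because it was not called, had 46.0 and 60.7 CPM in knockout-derived embryos and 60.4, 44.5 and 49.4 CPM in control embryos, against 45.4 to 48.4 CPM in knockout oocytes and 46.0 to 48.9 CPM in control oocytes. In controls its change was 0.10 (SE 0.12) and -0.05 without embryo replicate 1. Without maternal Daxx it was 0.15 (SE 0.13), with 0.35 (edgeR adjusted p = 0.0040) without embryo replicate 2, the 1 of 13 alternatives that called it, and -0.11 without embryo replicate 3.

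H3 and H4 genes changed by smaller factors, with exceptions. Medians were 1.31 for 11 H3 genes without maternal Daxx and 1.28 for 10 in controls, and 1.42 and 1.32 for 12 H4 genes. All of these pass the low-count filter on oocytes alone, unlike some H2A and H2B genes, so the class medians are not on the same footing. H3c11 (Entrez 319153) had 27.1 and 54.3 CPM in knockout-derived embryos and 36.5, 28.0 and 41.5 CPM in control embryos, against 0.969, 0.532 and 0.371 CPM in knockout oocytes and 0.737, 0.729 and 0.599 CPM in control oocytes. The stages did not overlap, and the rise of 5.98 (SE 0.43) and 5.65 (SE 0.21) put it beside the steepest H2A and H2B genes. H3c3 rose by 5.05 (SE 0.20) and 5.19 (SE 0.22). H3c7, the main H3 gene, had 610 and 740 CPM in knockout-derived embryos and 1138, 519 and 483 CPM in control embryos, against 580, 521 and 432 CPM in knockout oocytes and 458, 516 and 499 CPM in control oocytes. In controls its change of 0.52 (SE 0.37, edgeR adjusted p = 0.24) rested on embryo replicate 1, and without it was -0.01 (adjusted p = 0.90). Without maternal Daxx the change was 0.36 (SE 0.13, adjusted p = 0.031), and the call was lost in 5 of 13 alternatives: without knockout oocyte replicate 2 or 3 or embryo replicate 3 (adjusted p = 0.070, 0.10 and 0.33), with no low-count filter (0.056) and in 1 fit of all 11 libraries (0.42). H3c14 was called in neither genotype (-0.20, SE 0.10, adjusted p = 0.096, and 0.27, SE 0.30, adjusted p = 0.42), and its control value was -0.18 without embryo replicate 1. H3c1 was called without maternal Daxx (0.64, SE 0.21, adjusted p = 0.025) and not in controls (0.52, SE 0.26, adjusted p = 0.091). Its call was lost in 3 of 13 alternatives: without knockout-derived embryo replicate 3 (0.30, adjusted p = 0.29), with no low-count filter (0.61, adjusted p = 0.098) and in 1 fit of all 11 libraries (0.61, adjusted p = 0.10). The control value was 0.08 without embryo replicate 1 (adjusted p = 0.38) and 0.70 without replicate 2 (adjusted p = 0.017).

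All 12 H4 genes were higher in embryos in both genotypes, beside 42.5% of all genes tested without maternal Daxx and 43.1% in controls. H4c3 (Entrez 319155) had 191 and 187 CPM in knockout-derived embryos and 283, 197 and 176 CPM in control embryos, against 88.3, 103 and 97.1 CPM in knockout oocytes and 90.3, 99.4 and 89.9 CPM in control oocytes. Its rise was 0.93 (SE 0.09) without maternal Daxx and 1.21 (SE 0.16) in controls. H4c9 rose by 1.24 (SE 0.17) and 1.21 (SE 0.15), and H4c1 by 1.44 (SE 0.16) and 1.32 (SE 0.15). The smallest rise was that of H4c2, 0.68 (SE 0.18) and 0.44 (SE 0.16, edgeR adjusted p = 0.024). In controls its call was lost without oocyte replicate 3 (0.32, adjusted p = 0.11) or embryo replicate 1 (0.26, adjusted p = 0.11). H4c2 shares its stem-loop variant with H4c11, and the rise of H4c11, 2.15 (SE 0.27) and 1.82 (SE 0.28), was among the larger ones of the class.

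**Figure D3:**
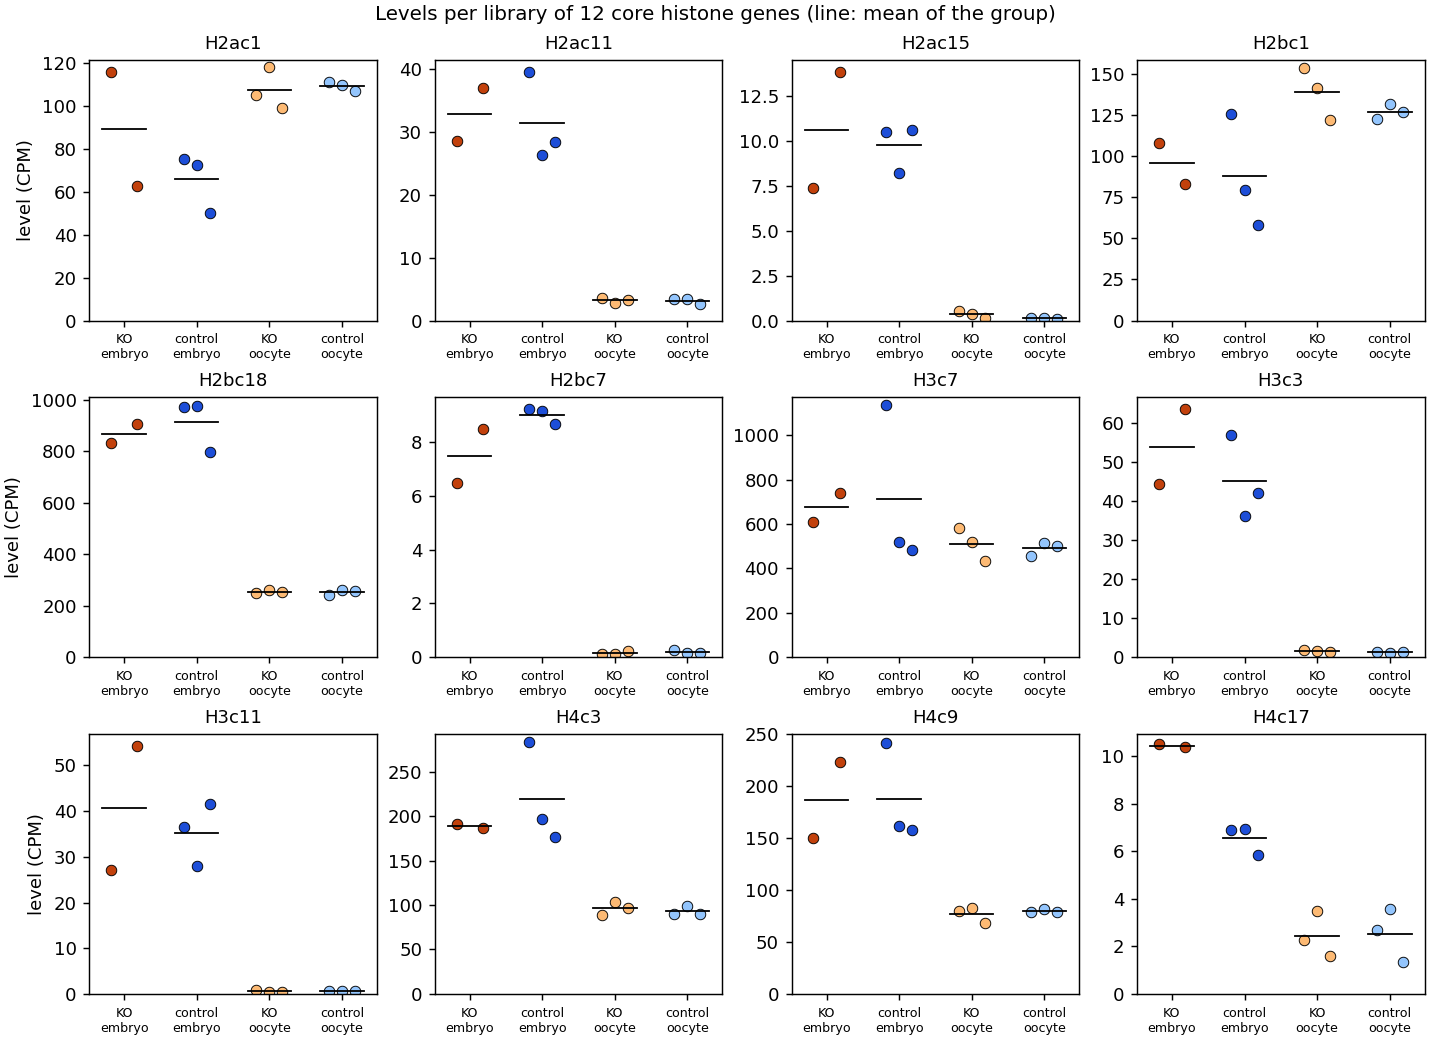
Level in each library (points, CPM, vertical axes from 0) of 12 core histone genes, with the group mean as a line; groups from left to right are KO embryos, control embryos, KO oocytes and control oocytes. H2ac15, H2bc7, H3c3 and H3c11 are near 0 in all oocyte libraries, H2bc18 exceeds 790 CPM in all embryo libraries, H2ac1 and H2bc1 are at or below the oocyte levels in embryos, and H3c7 has 1 control embryo library far above the other 2.

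Members with lower oocyte levels had larger changes. The level was taken in knockout oocytes and the change in controls, so that the axes share no library. They are still not independent, since the oocyte level is the denominator of the change. Member levels were close in the 2 oocyte groups, with medians of 3.22 CPM in knockouts and 3.12 CPM in controls. A negative relation can arise from this alone. The 14 members under 1 CPM per kb had a median change of 4.93 on the log2 scale (30.5-fold), the 14 between 1 and 10 CPM per kb one of 3.43 (10.8-fold), the 16 between 10 and 100 CPM per kb one of 1.22 (2.33-fold) and the 8 over 100 CPM per kb one of 0.87 (1.83-fold). Of the 14 members in the lowest bin, 4 pass the low-count filter on control oocytes alone. The others were tested only through their embryo reads and had to differ, so no count of calls is read from that bin. The median of those 4 was 4.60, with values from 3.37 to 5.33. In the other bins, where every member passes on oocytes alone, 14 of 14, 14 of 16 and 4 of 8 were called higher and, in the highest bin, 1 lower. Over the 52 members Spearman's rho was -0.84. It is given as a description, since members share libraries and reads, and the low-count filter sets a floor on the change of the scarcest genes.

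**Figure D4:**
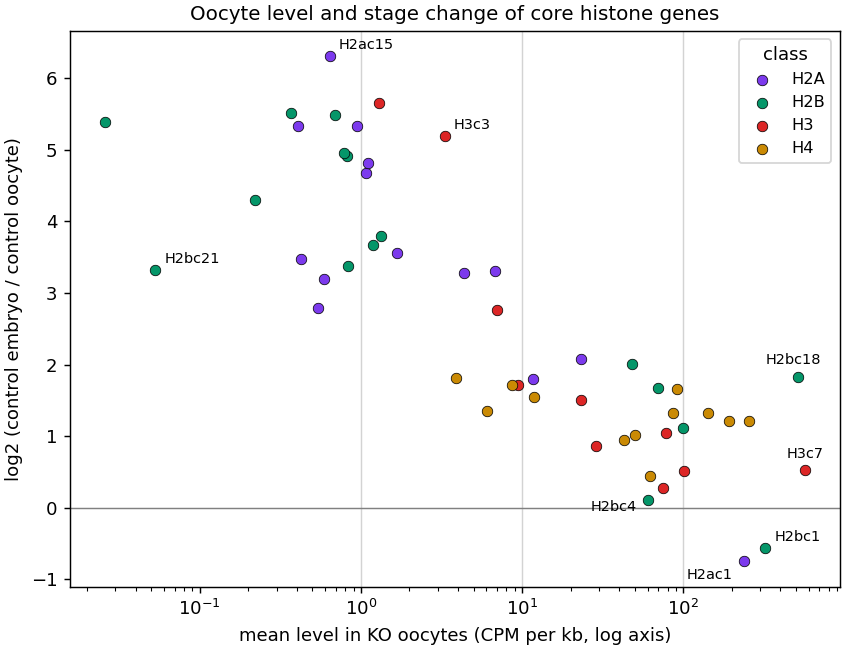
Mean level of each member in KO oocytes (CPM per kb, log axis) against its log2 ratio of control embryos to control oocytes (vertical axis), coloured by class; grey lines are the limits at 1, 10 and 100 CPM per kb. Members under 1 CPM per kb lie between 2.79 and 6.30 and those over 100 CPM per kb between -0.75 and 1.83.

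H2A and H2B genes of these clusters often lie head to head, and 11 such pairs with 163 to 280 bases between them were found among the members. Without maternal Daxx both genes were higher in embryos in 9 of the 11 pairs, and in controls in 8 of the 10 with both tested. Most members were higher whether paired or not, 49 of 54 and 46 of 52, beside 42.5% and 43.1% of all genes tested. These counts therefore show no trait of pairs. In both genotypes H2ac8, H2ac13, H2ac15, H2bc7 and H2bc21 also reached the test only through their embryo reads. The same held for H2ac23 and H2bc23 without maternal Daxx. Across those 10 pairs Pearson's r between the changes of the H2A and the H2B gene in controls was 0.88, a description over pairs that share libraries. Genes tested only through their embryo reads enter this value, and their changes could hardly be small. No relation within pairs is therefore read from it. In the pair H2ac7 and H2bc7 the changes were 5.01 and 5.48 without maternal Daxx and 5.33 and 5.51 in controls, and in H2ac22 and H2bc22 they were 5.10 and 5.16, and 4.81 and 4.91. In the pair of testis-type genes, H2ac1 and H2bc1, they were -0.32 and -0.59 without maternal Daxx and -0.75 and -0.56 in controls. The pair H2ac6 and H2bc4 was split: H2ac6 rose by 1.85 and 2.07, beside 0.15 and 0.10 for H2bc4.

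The comparison of genotypes asked whether core histone messages differ when the oocyte has grown without Daxx. In oocytes 0 of 48 members tested were called, beside 0.583% of 14235 genes tested (edgeR, adjusted p under 0.05). At an unadjusted p under 0.05 there was 1 of 48 members, beside 10.3% of all genes tested, and DESeq2 and limma-voom also called 0. The log2 changes of knockout against control oocytes ran from -0.36 to 0.89 with a median of 0.00. For 40 of the 48 the 95% interval of the change lay within a 2-fold difference in either direction. The smallest unadjusted p was that of H4c6 (0.0487). It had 13.8, 16.3 and 15.9 CPM in knockout oocytes and 13.5, 14.1 and 11.2 CPM in control oocytes, and the groups overlapped (log2 0.23, SE 0.11, edgeR adjusted p = 0.48). The next were H4c8 (log2 -0.17, SE 0.08), H3c15 (0.89, SE 0.47), H3c14 (0.14, SE 0.07) and H3c3 (0.36, SE 0.22), with adjusted p from 0.49 to 0.63. Of the abundant members, H2bc18 changed by -0.01 (SE 0.04), H4c3 by 0.03 (SE 0.06) and H3c7 by 0.04 (SE 0.11).

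In 2-cell embryos 0 of 55 members were called, beside 0.0260% of 15414 genes tested. At an unadjusted p under 0.05 there was 1 of 55 members, beside 3.19% of all genes tested, and DESeq2 and limma-voom called 0. The changes of knockout-derived against control embryos ran from -0.55 to 0.64 with a median of 0.02. The 95% interval lay within a 2-fold difference in either direction for 42 of 55. H4c17 (Entrez 100041230), an H4 gene on chromosome 13 from 21811746 to 21812150, had the smallest p (0.0163). It had 10.5 and 10.4 CPM in knockout-derived embryos and 6.90, 6.95 and 5.86 CPM in control embryos, which did not overlap, while oocytes held 1.59 to 3.48 CPM in knockouts and 1.33 to 3.57 CPM in controls. Its change was 0.64 (SE 0.24, 95% interval 0.13 to 1.15, edgeR adjusted p = 1.00, and 0.62 to 1.00 over the alternatives). H3c2 followed with 0.41 (SE 0.22), H2bc12 with -0.28 (SE 0.19), H2bc3 with 0.32 (SE 0.22) and H2ac1 with 0.39 (SE 0.27), all with adjusted p of 1.00. The H2ac1 value was -0.07 without knockout-derived embryo replicate 2.

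**Figure D5:**
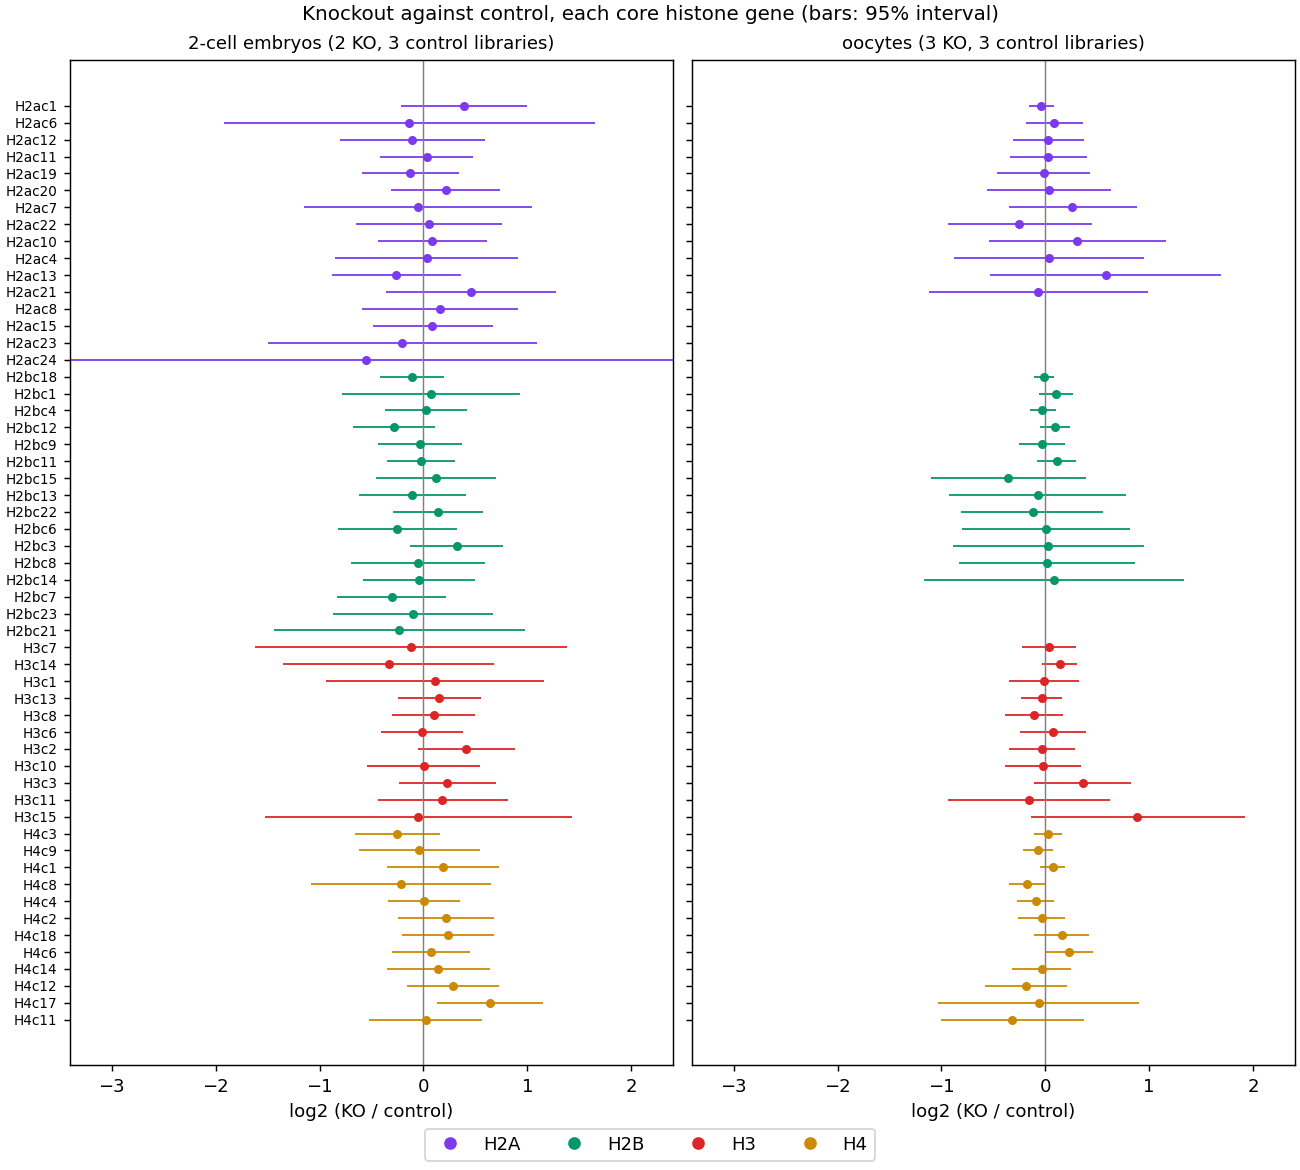
Log2 ratio of knockout to control (horizontal axis) for each core histone gene in 2-cell embryos (left) and oocytes (right), with the 95% interval of the edgeR fit, coloured by class and ordered by class and control oocyte level; genes with no point were not tested. The points scatter around 0, and no gene passes the adjusted threshold.

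Whether the stage change differed with the maternal genotype was tested as the difference between the genotype effects at the 2 stages, over all 11 libraries. Of 55 members 0 were called, beside 0.0118% of 17018 genes tested, and 1 had an unadjusted p under 0.05, beside 5.41% of all genes; DESeq2 and limma-voom called 0. That member was H2ac15, with a difference of -1.42 (SE 0.63, 95% interval -2.76 to -0.08, edgeR adjusted p = 0.91). The next were H2bc12 (-0.38, SE 0.20), H4c12 (0.46, SE 0.27), H3c2 (0.44, SE 0.27) and H4c17 (0.69, SE 0.45), with adjusted p of 0.94. Members with few oocyte reads had wide intervals here, and for 26 of 55 the interval lay within a 2-fold difference. These comparisons share control libraries with the ones above and are not independent of them.

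The genes that make, process and replace these messages were called in both directions, in shares to be read beside those of all genes (42.5% higher and 37.7% lower without maternal Daxx, 43.1% and 40.0% in controls). Of 17 genes for histone mRNA transcription and processing tested without maternal Daxx 6 were higher and 8 lower in embryos, and of 16 tested in controls 6 were higher and 8 lower (medians -0.06 and -0.13 on the log2 scale). Npat averaged 260 CPM in knockout-derived and 262 CPM in control embryos, against 50.2 CPM in knockout and 49.4 CPM in control oocytes, a rise of 2.33 (SE 0.07) and 2.38 (SE 0.09). Slbp averaged 494 and 457 CPM in these embryos and 1020 and 989 CPM in these oocytes, log2 changes of -1.09 (SE 0.08) and -1.14 (SE 0.08). The genes of the U7 snRNP proteins Lsm10 and Lsm11 fell too, with changes of -1.21 (SE 0.15) and -1.39 (SE 0.12) for Lsm10 and -1.28 (SE 0.11) and -1.32 (SE 0.12) for Lsm11. Cpsf3, which encodes the nuclease that cuts the message, changed by -2.85 (SE 0.16) and -2.57 (SE 0.14). Ncbp1, a subunit of the cap-binding complex, rose by 6.24 (SE 0.14) and 6.54 (SE 0.12).

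Of 12 genes that drive S phase 6 were higher and 5 lower in embryos in both genotypes. Ccne1, the cyclin E1 gene, averaged 479 and 553 CPM in knockout-derived and control embryos, against 3.52 and 2.93 CPM in knockout and control oocytes, a rise of 7.04 (SE 0.11) and 7.53 (SE 0.12). Ccna2 rose by 1.77 (SE 0.08) and 1.81 (SE 0.08) and Cdk2 by 1.33 (SE 0.10) and 1.36 (SE 0.15), while Cdc25a changed by -2.04 (SE 0.09) and -1.97 (SE 0.09). Of 9 replacement variants 4 were higher and 3 lower without maternal Daxx, and 4 higher and 2 lower in controls. The H3.3 gene H3f3b averaged 259 and 251 CPM in knockout-derived and control embryos, against 276 and 283 CPM in knockout and control oocytes, and was called in neither genotype. H3f3a changed by -0.30 (SE 0.10, edgeR adjusted p = 0.020) without maternal Daxx and was not called in controls (-0.12, SE 0.11, adjusted p = 0.30). H2az1, which encodes H2A.Z, rose by 4.08 (SE 0.21) and 4.50 (SE 0.14), and H2ax by 1.42 (SE 0.10) and 1.70 (SE 0.13).

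Of 26 histone chaperones 10 were higher and 11 lower in embryos without maternal Daxx, and 10 higher and 12 lower in controls. Npm2, the nucleoplasmin of the egg, fell to 181 and 160 CPM in knockout-derived and control embryos, against 1060 and 1100 CPM in knockout and control oocytes. Asf1a, a carrier of H3 with H4, changed by -2.08 (SE 0.08) and -2.03 (SE 0.12), and Chaf1a, a subunit of the replication-coupled assembly factor CAF-1, by -1.62 (SE 0.10) and -1.56 (SE 0.08). Hjurp, which deposits Cenpa, rose by 2.08 (SE 0.08) and 1.89 (SE 0.14). Between genotypes Daxx itself, in oocytes, was the only gene of these 4 lists that was called within a stage. At an unadjusted p under 0.05 there were 3 of 17, 1 of 9, 4 of 26 and 1 of 12 genes in oocytes (processing, variants, chaperones and S phase), beside 10.3% of all genes tested, and 0, 0, 2 and 1 in embryos, beside 3.19%.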

How the data were processed

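The authors deposited raw read counts per gene, under Entrez numbers, for 11 libraries, with a width in bases for each gene. Per the submitters' processing notes, STAR 2.5.0a and SAMtools were used with GRCm38 (mm10); the counting program, its strand setting and its treatment of shared reads stay unknown (not given in the sources used here). Per the labels' protocols, total RNA was amplified by PCR, so limits from counts cover counting error only. Every sample column was matched to a sample by its name. The first replicate of the knockout-derived embryos was not analysed here.

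Symbols came from RefSeq for 24387 of 24421 Entrez numbers, and the 34 others held at most 0.0325% of a library's reads. Levels are CPM, and CPM per kb uses the deposited width. This width exceeds the annotated span for H2ac7 (1886 bases), H3c14 (1852) and H2bc23 (4426), which lowers their CPM per kb. The level bins of H2ac7 and H3c14 depend on it. Each comparison was fitted over all genes with edgeR 4.0.16 in R 4.3.3 (TMM scaling, filterByExpr with a count minimum of 10 and a total minimum of 15, robust quasi-likelihood F test, Benjamini-Hochberg adjustment at 0.05), using the libraries of the groups compared. SEs were taken from the log2 change and its F value, and 95% intervals from the fit's degrees of freedom. The fitting code was tested on simulated data. Alternatives were DESeq2 1.42.0, limma-voom (limma 3.58.1), other scalings and filters, a replicate block, 1 fit of all libraries, and leaving out each library. Nothing says that libraries of a group came from separate females, so p-values measure the spread between these pools.

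The members and the accompanying lists were chosen with earlier results of these data known. Genes named are the 3 highest members of each class, the 5 largest called rises and falls of a comparison, the 5 smallest p where fewer than 3 members were called, the testis-type pair, and up to 4 genes of a list by p. H2bc4, H2bc21, H2ac23, H2ac24, H4c2, H4c11, the H2A and H2B pairs and the other genes named from the lists were chosen after their values were seen. Genes that carry such names only as older symbols were left out of the members.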

Additional observations from a re-analysis of the deposited data

How the results depend on the processing

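The count of core histone genes called between genotypes was 0 in oocytes, in embryos and for the difference under every alternative run. Core histone genes called higher in embryos kept within 1.5 times of their count under every alternative run. Those called lower in controls were 2 in place of 1 under limma-voom, the replicate block and 1 fit of all 11 libraries, and 1 to 2 without 1 library. Without maternal Daxx they were 2 in place of 1 with no low-count filter and with the replicate block, 0 in 1 fit of all libraries, and 1 to 2 without 1 library.

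Single genes changed sign in 6 cases, each without 1 embryo library. The embryo genotype change of H2ac1 was -0.07 to 0.73, the stage change in controls was -0.01 to 0.74 for H3c7 and -0.18 to 0.48 for H3c14, and the stage change of H2ac1 without maternal Daxx was -0.80 to 0.02. That of H2bc4 was -0.11 to 0.35 without maternal Daxx and -0.05 to 0.18 in controls; the cause was not tested. With the replicate block, H2ac1 was called lower without maternal Daxx (-0.39, edgeR adjusted p = 0.013), and in controls H2bc1 (-0.63, adjusted p = 0.049) and H3c1 (0.43, adjusted p = 0.043) were called. Deviations of libraries with the same replicate number correlated at -0.11 to 0.09. Pairing by replicate number was thus not seen, but groups of 2 or 3 libraries cannot exclude it. H3c14 was called lower without maternal Daxx with no filter (adjusted p = 0.045) and without knockout oocyte replicate 3 (0.048).

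Over all genes, 64 were called higher and 19 lower in knockout oocytes. These counts were 153 and 70 with DESeq2, 130 and 53 with no filter, 18 and 4 in 1 fit of all libraries, and 16 to 117 and 4 to 40 without 1 library, and 32 were lower with the block. In embryos 4 were called higher and 0 lower; the counts were 9 and 1 with DESeq2, 30 and 2 with no filter, 1 and 1 with the block, 12 and 1 in 1 fit of all libraries, 2 higher on library totals without TMM, and 0 to 5 and 0 to 4 without 1 library. For the difference 2 were higher and 0 lower; DESeq2 called 2 lower, limma-voom 1 higher, and leaving out 1 library gave 1 to 3 higher and 0 to 1 lower. Without the testis-type genes the summed level was 1597 CPM in knockout oocytes and 1554 CPM in control oocytes.

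RLE size factors moved the median stage change of all genes to 0.182 without maternal Daxx and 0.17 in controls, and that of the members to 2.24 and 2.02. A fit that leaves 1 knockout-derived embryo library assumes that it varies like the other group. Members near 0 in oocytes have few reads there, which limits their intervals.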

Other observations

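A few histone genes outside the family as defined here carry names of this kind only as older symbols, and their levels are given as values with no test. H4f16, formerly Hist4h4, averaged 194 CPM in knockout-derived embryos and 191 ± 38.1 CPM in control embryos, against 57.9 ± 4.57 CPM in knockout oocytes and 53.8 ± 3.46 CPM in control oocytes (SD, n = 3 in each group but the first, which has 2 libraries). H2aw, formerly Hist3h2a, averaged 85.1 and 99.1 CPM in these embryos and 44.3 and 49.7 CPM in these oocytes. H2bu2, formerly Hist3h2ba, averaged 10.1 and 10.4 CPM in embryos and 3.52 and 3.45 CPM in oocytes. The pseudogene H2bu1-ps, formerly Hist3h2bb, stood at 2.10 and 2.56 CPM in embryos and 0.405 and 0.482 CPM in oocytes. H4bc24, formerly Hist1h2br, averaged 7.72 and 8.24 CPM in embryos and 0.123 and 0.175 CPM in oocytes. The pseudogene H2af-ps2, formerly Hist1h2al, stood at 36.6 and 43.6 CPM in embryos and 29.9 and 29.5 CPM in oocytes. All 6 had higher means in embryos than in oocytes in both genotypes.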
